A study of Mus musculus with 10 samples.

Results

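The genes described here are 9 transcription factors of the skeletal muscle lineage, Myf5, Myod1, Myog, Myf6, Mef2a, Mef2c, Mef2d, Six4 and Tcf12, taken by symbol from a count table of 24620 gene entries. Each symbol was found once. Of the 9 genes, 8 passed the filter on low counts and were tested among 7753 genes, and Myf6 did not pass. The libraries were made from muscle stem cells (MuSCs), the resident stem cells of skeletal muscle, with 5 control and 5 Trpm7 cKO libraries. Control mice were Trpm7+/+; Pax7CreERT2/+; Rosa26YFP and Trpm7 cKO mice were Trpm7 flox/flox; Pax7CreERT2/+; Rosa26YFP, all adults on a C57BL6 background. The groups share the CreERT2 allele at Pax7, the YFP reporter, the tamoxifen (TMX) that switches the recombinase on, and an injury of the muscle by cardiotoxin (CTX) 3 days before the cells were sorted. The recombinase acts in cells that express Pax7, and the YFP label then passes to all of their descendants, so the sorted population holds MuSCs together with cells that have moved on from that state.

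MYF5, MYOD1, MYOG and MYF6 are the myogenic regulatory factors (MRFs), basic helix-loop-helix (bHLH) proteins that bind E-boxes in muscle genes as partners of the E proteins, of which TCF12 is an example. MYF5 and MYOD1 mark committed and activated cells, MYOG acts when myoblasts leave the cell cycle and differentiate, and MYF6 is most abundant in myotubes and fibres. The MEF2 proteins bind A/T-rich sites and work with the MRFs on differentiation genes, and SIX4 is a homeodomain protein that binds MEF3 sites in the promoters of muscle genes.

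The promoter of Myog shows the kinds of site that these families recognise, and it is printed here beside that of Myf5. Myf5 is the tested MRF whose mean moved in the other direction, although its groups overlapped. Both runs are the 200 bases before the RefSeq start site on GRCm38.p6, written 5′ to 3′ in lower case. Capitals mark an E-box (CANNTG), the MEF3 letters TCAGGTT, or a MEF2 core, here TA followed by 4 bases that are each A or T and then TA, all searched on both strands.
Myog promoter (chr1:134289804-134290003, plus strand): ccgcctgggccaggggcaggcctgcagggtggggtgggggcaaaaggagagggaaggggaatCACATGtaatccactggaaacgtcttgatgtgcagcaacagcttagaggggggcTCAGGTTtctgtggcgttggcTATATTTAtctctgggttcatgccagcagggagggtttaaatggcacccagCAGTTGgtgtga
Myf5 promoter (chr10:107486135-107486334, minus strand): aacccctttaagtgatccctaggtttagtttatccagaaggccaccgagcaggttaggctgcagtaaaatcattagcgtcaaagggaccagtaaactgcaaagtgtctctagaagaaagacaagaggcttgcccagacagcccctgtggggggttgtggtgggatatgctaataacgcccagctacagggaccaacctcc
In the Myog run the first base of the E-box CACATG lay 138 bases before the start site, the MEF3 letters 84, the MEF2 core 63 and the E-box CAGTTG 12 bases before it. None of these 4 matches overlapped another. The GENCODE annotation starts Myog 15 bases earlier than RefSeq, which places the last E-box inside its first exon. The Myf5 run held none of the 3 motifs. Over windows of 300 bases (250 before the start site and 50 after) for 32851 mouse promoters, an E-box was present in 72.3%, the MEF3 letters in 4.07% and the MEF2 core in 9.32%. RefSeq windows were matched for 7 of the 9 genes, all but Myod1 and Myf6, and gave 12 promoters. An E-box stood in 6 of the 12, the MEF3 letters in 3 and the MEF2 core in 4. Mef2c, whose mean rose although its groups overlapped, held 2 E-boxes, the MEF3 letters and a MEF2 core in the window at its GENCODE start. Its other windows held at most 1 E-box. Mef2d, which fell, held none of the motifs in its window. The MEF2 core is looser than the full MEF2 site and was defined after these windows were seen, and a match describes letters, not binding.

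Each library came from 3000 sorted cells by CEL-Seq2, which reads the 3′ end of a transcript and counts each molecule once by its unique molecular identifier (UMI). Control libraries held 914361 to 1097709 counts and Trpm7 cKO libraries 205986 to 581121, so depth and genotype cannot be told apart. Levels below are normalized CPM, that is, counts scaled to the library total (as CPM) and corrected by TMM factors. MuSC markers were present in every library, with 18 of 20 tested and a summed level of all 20 of 4493 to 5216 CPM in control and 4399 to 7343 CPM in Trpm7 cKO libraries. Of the 18, 9 were higher and 3 lower at an adjusted p below 0.05 by edgeR, with a median log2 fold change of 0.42. Over all tested genes 24.6% were higher and 24.1% lower. All 21 tested of 30 leukocyte markers rose past both thresholds given below, and all 30 together summed to 436 to 710 CPM in control and 1612 to 7275 CPM in Trpm7 cKO libraries. Of these markers Cd3e and Cd79a, which mark T and B cells, were at 0 in every control library and had at most 1 count in any Trpm7 cKO library, and neither was tested. The 4 tested fibro-adipogenic progenitor markers rose as well, and all 10 of that list summed to 92.5 to 152 CPM in control and 471 to 894 CPM in Trpm7 cKO libraries. The 3 tested endothelial markers also rose, and all 10 of that list summed to 6.43 to 78.7 CPM and 134 to 756 CPM. Several markers of these 3 lists passed the filter on low counts through the Trpm7 cKO libraries. Ccr2, Cdh5 and Dpt, for example, had at most 5, 8 and 11 counts in any control library. A higher call for such a gene follows in part from its being tested. The sums also hold the markers that were not tested. The sort for these libraries took YFP-positive cells, and the study describes antibodies to CD45, CD31 and Sca-1, which mark leukocytes, endothelial cells and progenitors, for its isolation of MuSCs from uninjured muscle. Trpm7 itself stood at 76.9 ± 9.97 CPM in control and 71.4 ± 22 CPM in Trpm7 cKO libraries (SD, n = 5 each, log2 fold change -0.09, adjusted p = 0.723 by edgeR), and the sources used here do not say whether the deleted part lies under these 3′-end counts, so this level does not check the deletion.

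In Trpm7 cKO MuSCs 6 of the factors fell and 2 rose. Myod1 and Myog fell about as far as each other, by 2.01 and 2.0 on the log2 scale, Mef2d fell by 1.96, Tcf12 by 1.42, Mef2a by 1.31 and Six4 by 0.64. Myf5 and Mef2c rose by 0.81 and 1.39 on the same scale, and each of these calls was lost when certain single libraries were left out. Mef2c also passed the filter on low counts through its Trpm7 cKO libraries. At an adjusted p below 0.05 in the edgeR quasi-likelihood test, 6 of the 8 tested factors were lower and 2 higher, where 24.1% of all tested genes were lower and 24.6% higher. The number of higher factors was near that share. With a log2 fold change beyond 1.5 asked for as well, Myod1, Myog and Mef2d remained lower and no factor was higher, against 3.53% and 8.49% of all genes. On counts thinned to equal depth, Mef2d was at -1.47, and 2 factors in place of 3 were lower by both thresholds. All 6 lower factors had every Trpm7 cKO library below every control library, as 17.9% of all genes did, and neither higher factor had every Trpm7 cKO library above every control library, as 16.6% of all genes did. The median log2 fold change of the 8 factors was -1.37, beside -0.01 over all tested genes. In these pooled cells, fewer cells expressing a gene and less of its RNA per cell cannot be told apart.

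**Figure D1:**
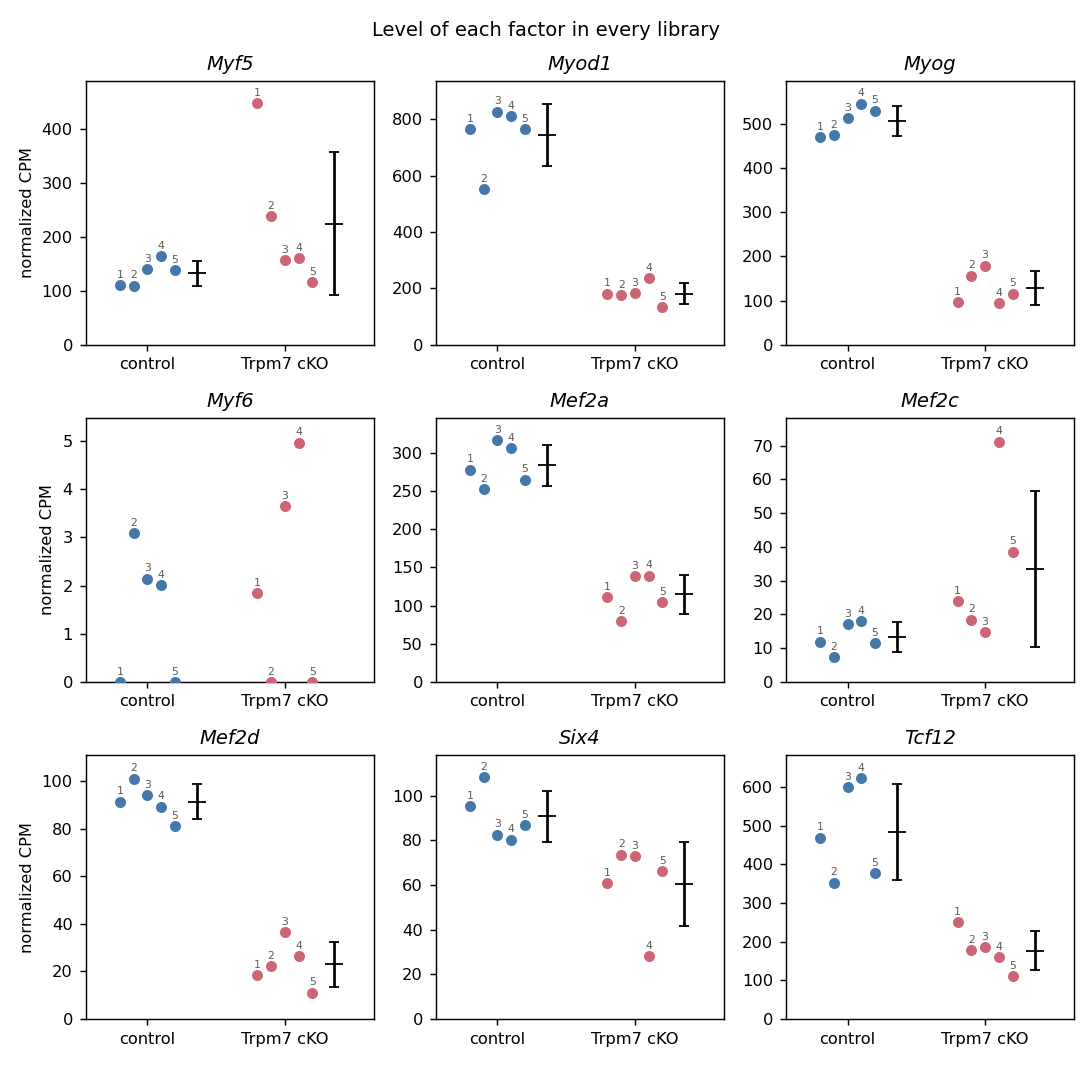
Level of each of the 9 factors in normalized CPM (vertical axes, each from 0) in every control and Trpm7 cKO library (points), with the mean and SD of each genotype beside them (not drawn for Myf6, which was not tested). Myod1, Myog, Mef2a, Mef2d, Six4 and Tcf12 have all 5 Trpm7 cKO libraries below all 5 control libraries, while Myf5 and Mef2c overlap between genotypes.

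Myod1, which drives activated MuSCs into the myoblast program (chr7:46376474-46379099 on GRCm38, 3 exons), stood at 764, 551, 827, 811 and 766 CPM in control libraries 1 to 5. In Trpm7 cKO libraries 1 to 5 it stood at 181, 175, 183, 235 and 132 CPM. The highest Trpm7 cKO library thus lay well under the lowest control library. The means were 744 ± 111 and 181 ± 36.6 CPM (SD, n = 5 each), a 4.02-fold lower level (log2 fold change -2.01, SE 0.16, adjusted p = 1.84e-08 by edgeR). These values rest on 534 to 808 counts per control library and 24 to 142 per Trpm7 cKO library. With every library thinned at random to 205986 counts, the log2 fold change was -1.89.

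Myog, the factor of terminal differentiation (chr1:134289989-134292548, 3 exons), stood at 470, 475, 513, 546 and 530 CPM in control libraries. Its Trpm7 cKO levels were 96.1, 156, 179, 94.4 and 116 CPM. The groups did not overlap, and the control libraries were close together, with a coefficient of variation of 6.59% where counting alone gives 4.56%. The means were 507 ± 33.4 and 128 ± 37.8 CPM (SD, n = 5 each), a 4.0-fold lower level (log2 fold change -2.0, SE 0.17, adjusted p = 3.47e-08 by edgeR). Thinned to equal depth, the log2 fold change was -1.85.

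Myf5, which marks cells committed to the lineage and is transcribed already in many quiescent MuSCs (chr10:107482908-107486134, 3 exons), stood at 110, 109, 140, 165 and 138 CPM in control libraries. The Trpm7 cKO libraries had 447, 237, 157, 161 and 116 CPM. Libraries 1 and 2 of the Trpm7 cKO group were above every control library and the other 3 were within the control range. The means were 133 ± 23.2 and 224 ± 132 CPM (SD, n = 5 each, log2 fold change 0.81, SE 0.29, adjusted p = 0.0357 by edgeR). The call rested on few libraries, since without Trpm7 cKO library 1 the log2 fold change was 0.37 (adjusted p = 0.115), and the call was also lost without Trpm7 cKO library 2 (0.80) or without control library 1 (0.75), 2 (0.76), 3 (0.81) or 5 (0.83), at adjusted p-values from 0.0508 to 0.0778. It was lost as well under DESeq2 (log2 fold change 0.70, adjusted p = 0.073) and when libraries were scaled on MuSC markers (0.43, adjusted p = 0.143).

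Myf6, the MRF of mature fibres, lies 6718 bases from Myf5 on the same strand (chr10:107492853-107494737). It had 0, 3, 2, 2 and 0 counts in control libraries and 1, 0, 1, 3 and 0 counts in Trpm7 cKO libraries. Both groups were at or under 3 counts in every library, so no difference was detectable at this depth and no fold is given.

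Within the MRFs the mixture of transcripts changed. Myf5 made up 8.21 to 10.8% of the summed counts of the 4 MRFs in control libraries and 30.1 to 61.6% in Trpm7 cKO libraries (means 9.54% ± 0.919 and 39.5% ± 13.1, SD, n = 5 each). Myod1 went from 53.5% ± 3.24 to 34.9% ± 8.33 and Myog from 36.8% ± 2.88 to 25.2% ± 8.83 (SD, n = 5 each). The lowest Myf5 share among Trpm7 cKO libraries, that of library 3, was 30.1% of 143 counts with a Wilson 95% interval of 23.2 to 38.0%, and the highest control share, that of library 4, was 10.8% of 1518 counts with an interval of 9.34 to 12.5%. These shares need no scaling between libraries, and the Wilson intervals cover counting error only.

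**Figure D2:**
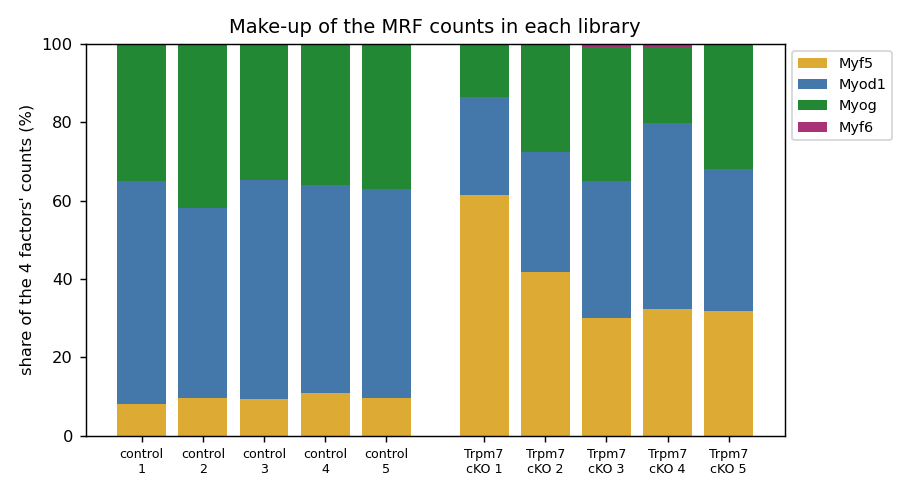
Share of the summed counts of Myf5, Myod1, Myog and Myf6 (vertical axis, percent, from 0 to 100) taken by each gene in each library (1 stacked bar per library). Myf5 takes 8.21 to 10.8% in the control libraries and 30.1 to 61.6% in the Trpm7 cKO libraries.

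Ratios of 2 genes within a library are likewise free of the scaling between libraries. The ratio of Myf5 to Myod1 counts was 0.145, 0.199, 0.170, 0.203 and 0.180 in control libraries and 2.47, 1.36, 0.860, 0.683 and 0.875 in Trpm7 cKO libraries. Every Trpm7 cKO library was above every control library, with a difference of 2.64 in mean log2 ratio (-2.49 ± 0.20 against 0.16 ± 0.73, SD, n = 5 each, exact permutation test, two-sided, p = 0.00794, adjusted p = 0.00952 over 6 ratios). The smallest p that 5 libraries against 5 allow is 0.00794. The ratio of Myog to Myod1 was 0.616, 0.861, 0.620, 0.673 and 0.692 in control libraries and 0.531, 0.895, 0.980, 0.401 and 0.875 in Trpm7 cKO libraries. These groups overlapped, with log2 ratios of -0.54 ± 0.20 and -0.52 ± 0.56 (SD, n = 5 each) and a difference of 0.02 (exact permutation test, two-sided, p = 0.960), which moved between -0.10 and 0.22 as each library was left out. The wider spread of the Trpm7 cKO libraries limits what this comparison could detect.

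Pax7, the paired-box factor of MuSCs that acts before the MRFs, rose from 206 ± 33.7 to 474 ± 122 CPM (SD, n = 5 each, log2 fold change 1.19, SE 0.18, adjusted p = 2.40e-05 by edgeR). There were 4.60, 2.81, 3.97, 4.02 and 2.96 Myod1 counts for each Pax7 count in control libraries and 0.331, 0.329, 0.391, 0.888 and 0.238 in Trpm7 cKO libraries. Myod1 thus outnumbered Pax7 in all 5 control libraries and Pax7 outnumbered Myod1 in all 5 Trpm7 cKO libraries. The mean log2 ratio of Myod1 to Pax7 went from 1.85 ± 0.31 to -1.35 ± 0.71 and that of Myog to Pax7 from 1.31 ± 0.18 to -1.87 ± 0.48 (SD, n = 5 each), each with p = 0.00794 by the exact permutation test and an adjusted p of 0.00952.

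**Figure D3:**
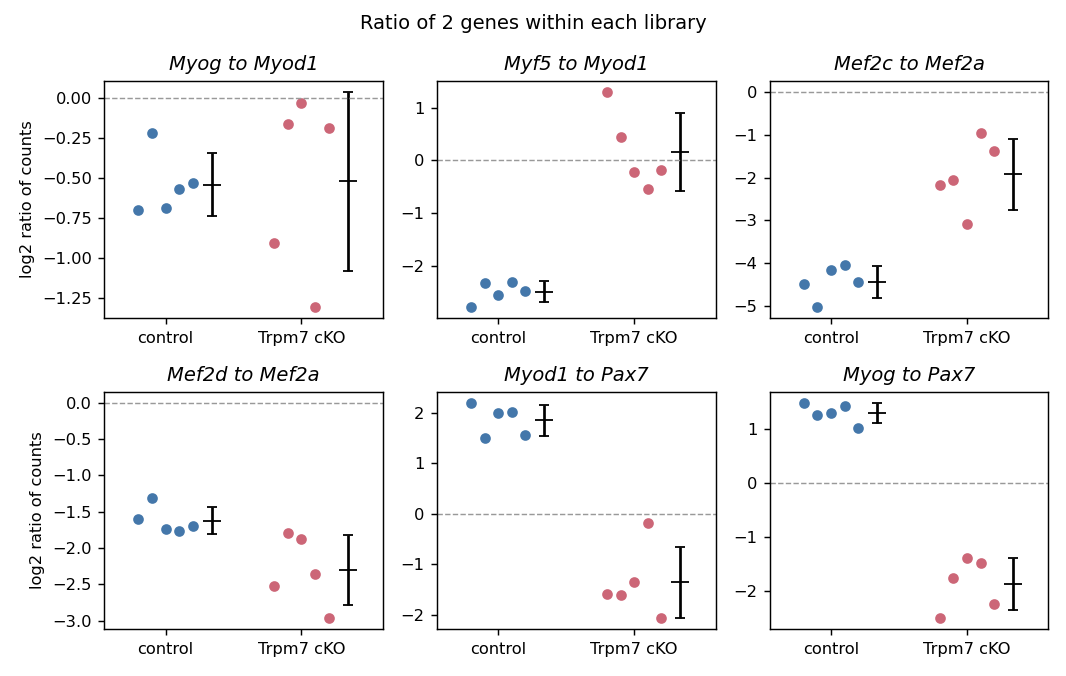
Log2 ratio of the counts of 2 genes (vertical axes, 0.5 added to each count, dashed line at equal counts) in every control and Trpm7 cKO library (points), with mean and SD. The Myog to Myod1 ratio overlaps between genotypes, and the other 5 ratios do not.

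The 3 MEF2 genes measured at testable levels did not move together. Mef2a (chr7:67231163-67372858), a MEF2 gene expressed in many tissues, stood at 278, 253, 317, 306 and 265 CPM in control libraries and 111, 79.1, 139, 139 and 105 CPM in Trpm7 cKO libraries. The groups did not overlap, with means of 284 ± 27.2 and 115 ± 25.3 CPM (SD, n = 5 each), a 2.48-fold lower level (log2 fold change -1.31, SE 0.16, adjusted p = 2.14e-06 by edgeR).

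Mef2d (chr3:88142372-88172086), a MEF2 gene with a muscle-specific splice form that promotes differentiation, stood at 91.5, 101, 94.4, 89.3 and 81.0 CPM in control libraries. In Trpm7 cKO libraries it stood at 18.5, 22.1, 36.5, 26.5 and 11.0 CPM, on 2 to 16 counts each. No Trpm7 cKO library reached the control range, and the means were 91.5 ± 7.36 and 22.9 ± 9.49 CPM (SD, n = 5 each), a 3.90-fold lower level (log2 fold change -1.96, SE 0.21, adjusted p = 4.46e-07 by edgeR). Splice forms are not separated by 3′-end counts. Relative to Mef2a, Mef2d was lower by 0.68 in mean log2 ratio (-1.63 ± 0.18 against -2.30 ± 0.48, SD, n = 5 each, exact permutation test, two-sided, adjusted p = 0.00952), but this difference was -0.10 with an adjusted p of 1.00 after thinning and missed the threshold without control library 1 (-0.67) or control library 2 (-0.60).

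Mef2c (chr13:83504034-83667080), the MEF2 gene needed for sarcomere formation and also active in endothelial and immune cells, stood at 11.9, 7.23, 17.2, 18.1 and 11.6 CPM in control libraries. In Trpm7 cKO libraries it stood at 24, 18.4, 14.6, 71.2 and 38.6 CPM, on 4 to 43 counts. Library 3 lay within the control range and library 4 far above the rest. The means were 13.2 ± 4.45 and 33.4 ± 23.1 CPM (SD, n = 5 each, log2 fold change 1.39, SE 0.39, adjusted p = 0.00597 by edgeR), and without Trpm7 cKO library 4 the log2 fold change was 0.73 (adjusted p = 0.0885). Control libraries held 7 to 18 counts, and Mef2c passed the filter on low counts through its Trpm7 cKO libraries. The call as higher is therefore not independent of the filter. Summed leukocyte markers in Trpm7 cKO libraries 1 to 5 were 4180, 1612, 4268, 7275 and 6788 CPM and summed endothelial markers 157, 134, 248, 403 and 756 CPM. Libraries 4 and 5, the highest for Mef2c, were also the highest for both marker lists, and the part of those cells, which a YFP gate would leave out, in the Mef2c level was not tested.

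Mef2b had at most 1 count in any library. On the strand opposite to Mef2a, Lysmd4 overlaps its last kilobase, and 1700113A16Rik does so for Mef2d. The strand setting of the counting is not given in the sources used here, so reads of these partners cannot be told apart from those of the MEF2 genes. Among 31-base words of the annotated 3′ ends, 0.449% of those of Tcf12 and 0.023% of those of Mef2c occurred in other genes, and none of the other 7 factors shared any.

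Of the partners, Tcf12, an E protein that pairs with the MRFs on E-boxes (chr9:71842688-72111871), stood at 469, 353, 601, 624 and 377 CPM in control libraries. The levels in the Trpm7 cKO group were 251, 179, 186, 159 and 110 CPM. The groups did not overlap, with means of 485 ± 124 and 177 ± 50.9 CPM (SD, n = 5 each), a 2.68-fold lower level (log2 fold change -1.42, SE 0.20, adjusted p = 9.21e-06 by edgeR). The other E protein genes moved less or in the other direction. Tcf3 fell by 0.56 on the log2 scale (adjusted p = 0.00421) and Tcf4 rose from 468 ± 35.4 to 810 ± 174 CPM (SD, n = 5 each, log2 fold change 0.78, adjusted p = 2.31e-04).

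Six4, a homeodomain factor upstream of the MRFs (chr12:73099609-73113456), stood at 95.5, 108, 82.6, 80.3 and 86.8 CPM in control libraries. Among Trpm7 cKO libraries the levels were 61.0, 73.6, 73.1, 28.2 and 66.2 CPM. The groups did not overlap, although the gap between them was small, from 73.6 to 80.3 CPM. The means were 90.7 ± 11.5 and 60.4 ± 18.8 CPM (SD, n = 5 each), a 1.56-fold lower level (log2 fold change -0.64, SE 0.21, adjusted p = 0.0176 by edgeR). Without Trpm7 cKO library 4 the log2 fold change was -0.42 (adjusted p = 0.0518). Six2, of the same gene family, rose (log2 fold change 1.21, adjusted p = 7.09e-04).

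**Figure D4:**
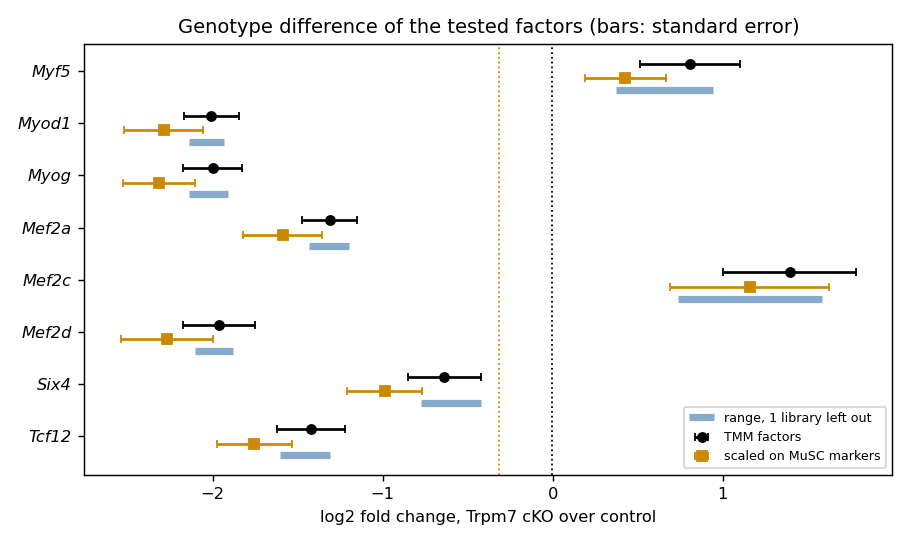
Log2 fold change of Trpm7 cKO over control for the 8 tested factors (horizontal axis), with TMM factors and with scaling on MuSC markers (points, bars give the standard error) and the range as each library is left out (thick line). Myod1, Myog and Mef2d lie near -2 with TMM factors, and the range of Myf5 reaches down to 0.37.

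Counts of molecules at the 3′ end were not divided by transcript length, and the order of levels is given on that scale. In control libraries the order of mean CPM was Myod1 (744), Myog (507), Tcf12 (485), Mef2a (284), Myf5 (133), Mef2d (91.5), Six4 (90.7) and Mef2c (13.2). Myog and Tcf12 differed by less than their spread, as did Mef2d and Six4. In Trpm7 cKO libraries the order was Myf5 (224), Myod1 (181), Tcf12 (177), Myog (128), Mef2a (115), Six4 (60.4), Mef2c (33.4) and Mef2d (22.9). Neighbours among the first 5 differed by less than the larger of their SDs, and so did Mef2c and Mef2d. When libraries were scaled on MuSC markers instead of TMM factors, the median of all genes moved to -0.32, Myod1 to -2.29, Myog to -2.32, Mef2a to -1.59, Mef2c to 1.16, Mef2d to -2.27, Six4 to -0.99 and Tcf12 to -1.75, and none of the 8 factors changed direction. The MuSC markers themselves had a median log2 fold change of 0.42, and scaling on them moved all 8 factors down.

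Among 44 cofactors and upstream regulators of the MRFs and MEF2 proteins, 36 were tested, of which 8 fell, 13 rose and 15 did not pass the test, with a median log2 fold change of 0.08. Over all tested genes 24.1% were lower and 24.6% higher, and the lower cofactors were near that share. Rbm24, an RNA-binding protein of muscle differentiation, fell from 440 ± 35.7 to 54.0 ± 6.04 CPM (SD, n = 5 each, log2 fold change -3.0, SE 0.15, adjusted p = 2.02e-11 by edgeR). Lbx1, a homeobox factor of migrating muscle precursors, fell by 1.1 and Tead2, a TEAD factor of the Hippo pathway, by 1.08 on the log2 scale. Tead4 went from 15 to 20 counts per control library to at most 2 per Trpm7 cKO library, and Klhl40, a kelch protein of the thin filament, from 18 to 21 to at most 3. Cdon, a cell surface receptor that promotes myogenesis, rose from 131 ± 15.8 to 341 ± 121 CPM (SD, n = 5 each, log2 fold change 1.38, adjusted p = 5.89e-05). The TEAD cofactor genes Vgll3 and Vgll4 rose by 1.37 and 1.44.

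Among 34 inhibitors of these factors, 28 were tested, of which 4 fell, 14 rose and 10 did not pass the test, where 24.1% of all genes were lower and 24.6% higher. The median log2 fold change of the inhibitors was 0.59. Hdac4, a class IIa histone deacetylase that binds MEF2 and represses its targets, rose from 28.0 ± 3.42 to 119 ± 52.6 CPM (SD, n = 5 each, log2 fold change 1.99, SE 0.25, adjusted p = 2.80e-06 by edgeR). Hdac7 of the same class rose by 1.15. Bhlhe40 and Bhlhe41, bHLH repressors that also belong to the circadian clock, rose by 2.80 and 1.54, Mdfic, an MDFI-family gene, by 1.27 and Zeb2, a zinc-finger repressor, by 0.58. The ID genes, whose products bind E proteins and keep them from the MRFs, were split, with Id1 lower by 0.72 and Id2 by 0.65, and Id3 higher by 0.64 and Id4 by 1.1, all past the test. Suv39h1, a histone H3K9 methyltransferase, fell by 1.95 and Hes6, a HES family gene that promotes rather than blocks myogenesis, by 0.96. Scaled on MuSC markers, 7 of the inhibitors were higher instead of 14. Zeb2, Hdac7 and Bhlhe40 are also expressed in leukocytes, whose markers rose in the same libraries, and the part of those cells was not tested.

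Among 63 genes known as targets of these factors, 37 were tested, of which 18 fell, 8 rose and 11 did not pass the test, with a median log2 fold change of -0.61. The higher targets were near the share of 24.6% among all genes, where 24.1% were lower. Beyond 1.5 on the log2 scale as well, 11 were lower and 2 higher, against 3.53% and 8.49% of all genes. Ttn, the giant spring protein of the sarcomere, fell from 917 ± 81.3 to 89.9 ± 32.8 CPM (SD, n = 5 each, log2 fold change -3.37, SE 0.20, adjusted p = 2.25e-10 by edgeR). Chrna1, the alpha subunit of the muscle acetylcholine receptor, fell from 903 ± 81.4 to 144 ± 31.2 CPM (SD, n = 5 each, log2 fold change -2.61, SE 0.16, adjusted p = 3.11e-10). Tnnt2, the cardiac and embryonic troponin T, fell by 2.60 and Arpp21, a phosphoprotein gene, by 1.99. Dok7, an adaptor at the neuromuscular junction, had 66 to 114 counts in control libraries and 0 to 5 in Trpm7 cKO libraries, and Chrnd, the delta receptor subunit, 31 to 60 and 0 to 2.

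Not every target was lower. Des, the intermediate filament of muscle (log2 fold change 0.08, adjusted p = 0.682), and Cdh15, the M-cadherin of MuSCs and myoblasts (0.11, adjusted p = 0.617), did not pass the edgeR test. The MEF2 targets Nr4a1, an orphan nuclear receptor, and Klf4 and Klf2, Kruppel-like factors, are induced in many cell types, and they rose by 1.74, 1.42 and 0.77. Gadd45a, a stress-response gene, rose by 1.29, Hbegf, an EGF-family ligand, by 0.87 and Tnni1, the slow troponin I, by 2.08 on 2 to 10 counts in control and 3 to 23 in Trpm7 cKO libraries. Scaled on MuSC markers, 4 targets were higher instead of 8, again without a count of the share of all genes. Fgfr4 and Cdh15 are both listed targets and MuSC markers used for the scaling. The mature myofibre markers, of which 3 of 10 were tested, together summed to 384 to 439 CPM in control and 113 to 166 CPM in Trpm7 cKO libraries, with Myh7 at 0 in every library. Eno3 gave most of the control sum and fell from 358 ± 30.5 to 71.7 ± 17.0 CPM (SD, n = 5 each). Ryr1 also fell, while Pygm did not pass the edgeR test (log2 fold change 0.42, adjusted p = 0.384). Myh4 and Pvalb, not tested, were higher in mean in Trpm7 cKO libraries, on at most 7 counts in any library.

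**Figure D5:**
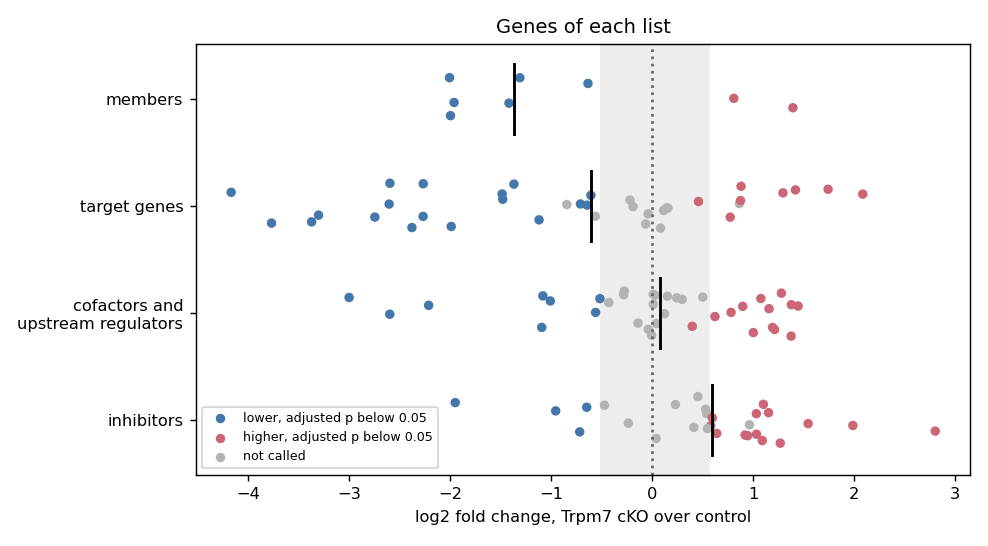
Log2 fold change of Trpm7 cKO over control (horizontal axis) for each tested gene (point) of the 9 factors, their cofactors and upstream regulators, their inhibitors and their targets (vertical axis), coloured by the edgeR call at an adjusted p below 0.05. Fitted values of genes at the floor depend on the prior count, and those genes are given in counts in the text. Of the targets 18 of 37 were lower and 8 higher, and of the inhibitors 4 of 28 were lower and 14 higher.

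The genes nearest to each factor were those with the smallest root mean square (RMS) difference in centred log2 CPM over the 10 libraries, out of 3661 genes at 50 CPM or more. For Myod1 these were Mrpl34, a mitochondrial ribosomal protein gene (RMS 0.16), D030056L22Rik (0.19) and Shmt2, of mitochondrial serine metabolism (0.19). For Myog they were Dmwd (0.25), the neural and progenitor factor Sox11 (0.30) and Nme4 (0.33), and for Mef2d Dmwd (0.23), Aamdc (0.23) and 2310061I04Rik (0.28). For Mef2a they were Tacc3, of the mitotic spindle (0.14), Prep (0.16) and Mtmr2 (0.16). Mef2c was less closely matched, by Dab2, an endocytic adaptor abundant in macrophages (0.32), Sdcbp (0.41) and B2m, the light chain of MHC class I (0.41). All 15 matches lie in the same 10 libraries and share their depth and group difference.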

How the data were processed

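RNA-seq counts of 5 control and 5 Trpm7 cKO libraries were analysed. The authors extracted UMIs with UMI-tools 1.1.4, trimmed reads with Trim Galore 0.6.10, aligned them to GRCm38 with HISAT2 2.2.1, counted genes with featureCounts 2.0.6, removed UMI duplicates and deposited raw counts of molecules per gene. The annotation release and strand setting are not given in the sources used here. Groups came from the labels, which do not say whether libraries are from separate animals, so p-values measure the spread between these samples. The labels of Trpm7 cKO libraries 4 and 5 share a number of unstated meaning. Pairs of libraries within a group differed by more than counting noise (chi-square per degree of freedom 1.48 to 6.45) and all were kept. The 24620 entries carry 24608 symbols, and the entry with the larger total kept a repeated symbol.

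Genes were filtered with filterByExpr (minimum count 10, minimum total 15) and tested with edgeR 4.0.16 in R 4.3.3, with library scaling by TMM and a robust quasi-likelihood model with genotype as its term, and p-values adjusted by Benjamini-Hochberg. SE is the fold change divided by the root of F. The script was tested on simulated data. Ratios of counts, with 0.5 added, were compared by exact permutation over 252 splits. Alternatives were DESeq2 1.42.0, other scalings, no filter, thinned counts, a replicate block, Trpm7 cKO libraries 4 and 5 summed, and each library left out. Members and lists were chosen with earlier results of these data known. Beside the members, the text names up to 6 called genes per list and direction with the smallest adjusted p and at least 10 CPM in a genotype, and the 3 nearest genes for 5 members. A gene that this rule names is not reported here. Genes named outside this rule are Trpm7 and the markers, and Tcf3, Id3, Id4, Mef2b, Des, Cdh15 and overlapping genes, which were chosen after their values were seen. Gene positions came from GENCODE M21 on GRCm38 and promoters from RefSeq on GRCm38.p6. Against the floor of 3 counts per library no fold is given, and the list medians did not move when the 2 cofactors and 2 targets at that floor were set to it. Depth, from 205986 to 1097709 counts, limits the low genes most.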

Additional observations from a re-analysis of the deposited data

Results flagged for a closer look

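Of 28 groups of 5 libraries checked with Dixon's 95% criterion, 2 held a library far from the others, and chance alone gives about 1 in 20. Myod1 in control library 2 was at 551 CPM where the other control libraries were at 764 to 827 CPM. Six4 in Trpm7 cKO library 4 was at 28.2 CPM where the other Trpm7 cKO libraries were at 61.0 to 73.6 CPM.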

How the results depend on the processing

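Over 299 values recomputed under alternatives, 257 kept their direction and call and 36 changed call or count. A count of called genes was taken as kept when it changed little, as from 6 to 5 members lower. The other 6 were of the Myog to Myod1 difference, which was not called and turned from 0.02 to the other sign on thinned counts (-0.0038) and without control library 1 or 3 or Trpm7 cKO library 2, 3 or 5. By adjusted p, Myod1, Myog, Mef2a, Mef2d and Tcf12 kept their calls under every alternative run, with ranges as each library was left out of -2.14 to -1.94, -2.14 to -1.91, -1.43 to -1.20, -2.11 to -1.88 and -1.60 to -1.31 on the log2 scale. The range was 0.37 to 0.94 for Myf5, 0.73 to 1.58 for Mef2c and -0.77 to -0.42 for Six4. It was 5 to 6 for the members called lower, 3 to 4 for those lower by both thresholds, 1 to 2 for those higher and 0 to 1 for those higher by both. For the log2 ratios it was -0.10 to 0.22 (Myog to Myod1), 2.36 to 2.82 (Myf5 to Myod1), 2.26 to 2.80 (Mef2c to Mef2a), -0.80 to -0.51 (Mef2d to Mef2a), -3.49 to -3.03 (Myod1 to Pax7) and -3.30 to -3.02 (Myog to Pax7). Myf5 lost its call under DESeq2 (0.70) and MuSC scaling (0.43), which left 1 member higher. With total counts alone 1 member, Mef2c, was higher by both thresholds. MuSC scaling and no filter each gave 5 lower by both thresholds, and MuSC scaling gave 7 inhibitors and 4 targets higher. The shares of all genes past the thresholds in each direction were not counted under these settings. On thinned counts Mef2d was -1.47, which left 2 members lower by both thresholds, Six4 was -0.63 and lost its call, Mef2c fell under the filter, which left 1 member higher, and the Mef2d to Mef2a difference was -0.10. With a pseudocount of 2 that difference was -0.48 (adjusted p = 0.0571). Beyond the construction of each alternative, the cause was not tested. Summing Trpm7 cKO libraries 4 and 5 changed no call of the 8 members.

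The replicate numbers of the labels did not pair the libraries: the correlation of same-numbered libraries ranged from -0.12 to 0.18 and was over 0.1 in 1 of 5 pairs, and 1 of 5 control and 0 of 5 Trpm7 cKO libraries correlated best with their own number. With the replicate number as a block Myf5 was 0.67 (adjusted p = 0.0801 by edgeR), which left 1 member higher. Low counts limit Mef2c, Mef2d and Myf6 most.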
